A study of Mus musculus with 60 samples.

Results

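The 8 striatum-like libraries with the highest and the 8 with the lowest summed FPKM were compared, 16 of 30 striatum-like libraries and of 60 in all. FPKM is the number of sequenced fragments of a gene per kilobase of transcript, scaled to the size of the library. A library was taken as striatum-like where Slc17a7, the vesicular glutamate transporter of cortical excitatory neurons, had 100 FPKM or less, and the 30 were ranked by the sum of FPKM over all 47597 gene entries of the table. The libraries were thus selected on measured values, their FPKM of Slc17a7 and their summed FPKM, and differences in the sum and in the short RNAs that make it up are given as a description with no test. The last library inside the high group had a sum of 4.19 M (M is a factor of 1000000) and the first outside it 4.15 M. At the other end, the highest sum of the low group was 1.65 M and the next above it 1.71 M.

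The study sequenced rRNA-depleted total RNA of cortex and striatum of c57BL-6N mice aged 3 months that carried altered alleles of Htt, the huntingtin gene. In the Δ12 line the allele lacks the 3′ part of the exon that names it, and in the KO line the splice donor after that exon is missing. The 30 striatum-like libraries were all 24 libraries of the KO line, 12 labelled +/+ and 12 KO/+, and 6 labelled Δ12/Δ12 female, with 15 labelled cortex and 15 labelled striatum. The high group held 4 libraries labelled +/+, 2 KO/+ and 2 Δ12/Δ12, and the low group 2, 4 and 2. By labelled tissue the high group was 5 cortex and 3 striatum and the low group 4 and 4, and each group held 5 labelled female and 3 labelled male. It is not stated whether cortex and striatum libraries of one number came from one mouse.

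The labels and the transcripts disagreed in part. All 16 libraries carried striatal transcripts, with Drd1, the dopamine receptor of direct-pathway neurons, at 28.0 to 51.3 FPKM against 5.17 to 21.9 in the 30 cortex-like libraries, and Adora2a, the adenosine receptor of indirect-pathway neurons, at 42.5 to 83.6 against 1.93 to 25.7. This held for the 9 of them labelled cortex as well. Xist and the Y-linked Ddx3y matched the labelled sex in 17 of the 30 libraries. Htt itself stood at 11.7 to 17.3 FPKM in the 12 libraries labelled KO/+, and 5 of these were at or above the lowest of the 12 labelled +/+, which ran from 15.4 to 18.1. Every library is named by its label below, and label comparisons carry these limits.

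The short RNAs that head these tables are structural RNAs of the cell's RNA machinery. U4 is a small nuclear RNA (snRNA) that pairs with U6 in the spliceosome and holds it inactive until splicing starts. Y RNAs are bound by the Ro60 protein, and 7SL is the RNA scaffold of the signal recognition particle. Rn7sk encodes 7SK, which keeps the elongation factor P-TEFb inactive, and Rmrp and Rpph1 encode the RNAs of RNase MRP and RNase P. Small nucleolar RNAs (snoRNAs) guide modification of ribosomal RNA, and scaRNAs do the same for snRNAs in Cajal bodies. None of these RNAs carries a poly(A) tail as messenger RNAs do, and U4 and the Y RNAs are shorter than the fragments of these libraries, whose mean length was 234 to 244 bases in the 16.

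The sequences of 4 entries, the U4 and Y RNA genes that made up most of the sum in the high group though not in the low group, are shown to make their length and likeness visible, as given by GENCODE release M21 on GRCm38, 5′ to 3′. Gm24407 (ENSMUSG00000094377, chr5:115490254-115490394, plus strand) and Gm24265 (ENSMUSG00000096243, chr5:115489459-115489599, plus strand) are both U4 snRNA genes of 141 bases whose starts lie 795 bases apart. Capitals mark AATTTTTG, the Sm-type stretch at which U4 binds its ring of Sm proteins, beginning at position 118 in each.
Gm24407: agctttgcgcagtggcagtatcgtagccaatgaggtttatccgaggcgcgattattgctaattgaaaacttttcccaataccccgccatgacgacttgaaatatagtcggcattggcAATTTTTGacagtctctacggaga
Gm24265: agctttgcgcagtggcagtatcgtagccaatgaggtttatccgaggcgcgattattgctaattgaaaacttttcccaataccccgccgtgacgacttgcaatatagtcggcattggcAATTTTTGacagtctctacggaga
They were 98.6% identical and differed at 2 positions, A88G and A99C, counted from the 5′ end with the base of Gm24407 first. The search took the letters as given: 6 of 895 annotated transcripts of 130 to 145 bases held AATTTTTG (0.670%), and 1 held it on the other strand. Reads outside those positions cannot be told apart between the genes.

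Rny3 (ENSMUSG00000064945, chr6:47781624-47781725, plus strand, 102 bases) and Rny1 (ENSMUSG00000065701, chr6:47788069-47788180, minus strand, 112 bases) are the Y RNA genes of the same cluster on chromosome 6. Capitals mark the run of T at the end, the form of an RNA polymerase III stop.
Rny3: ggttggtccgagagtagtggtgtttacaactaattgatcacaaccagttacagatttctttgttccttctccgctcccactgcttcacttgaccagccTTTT
Rny1: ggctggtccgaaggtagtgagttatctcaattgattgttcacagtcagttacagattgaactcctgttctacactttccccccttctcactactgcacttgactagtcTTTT

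The sums of the 8 high libraries ran from 4.19 to 11.2 M with a median of 6.27 M, and those of the 8 low libraries from 0.532 to 1.65 M with a median of 1.16 M. The highest sum, 11.2 M, was that of the library labelled cortex KO-line +/+ male 2. Next came cortex KO-line +/+ male 1 with 8.51 M and cortex KO-line +/+ female 3 with 7.26 M. The lowest, 0.532 M, was that of cortex KO-line KO/+ female 3, so that the extremes stood 21.1-fold apart. Entries with a genomic span of up to 400 bases, called short here, were 8936 of the 47597. They held 94.6 to 97.9% of the sum in the high group and 61.2 to 86.1% in the low group. The 38661 longer entries summed to 0.210 to 0.262 M in the high group and 0.186 to 0.249 M in the low group, so the ranking was one of the short entries. Ranking by these alone returned the same 8 and 8 libraries.

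Among the short entries the difference lay mainly in those under 150 bases. These summed to 3.46 to 10.6 M FPKM (median 5.50 M) in the high group and 0.0460 to 1.01 M (median 0.530 M) in the low group, a ratio of medians of 10.4. Entries of 150 to 400 bases, which include 7SL, 7SK, RMRP and RNase P RNA, summed to 0.368 to 0.644 M and 0.231 to 0.520 M, a ratio of 1.51.

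**Figure D1:**
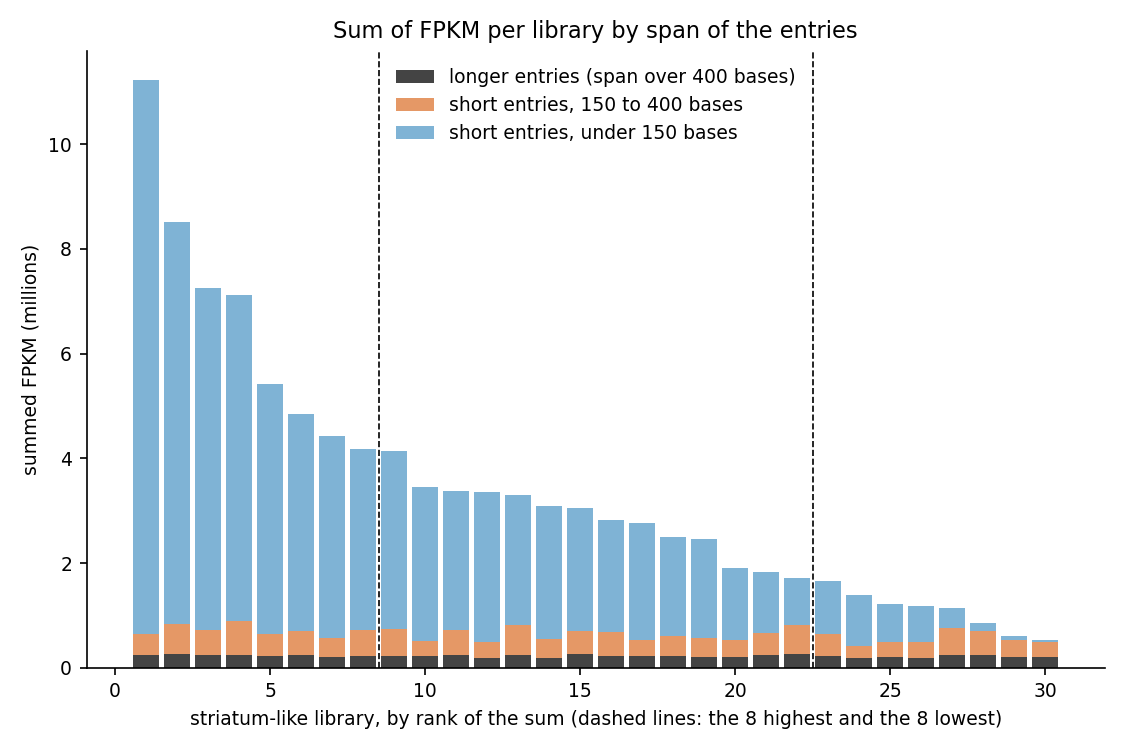
Sum of FPKM (y axis) in each of the 30 striatum-like libraries, ordered by rank and divided into short entries under 150 bases, short entries of 150 to 400 bases and longer entries. The entries under 150 bases account for most of the difference between the ends but not for every rank. The library of rank 22 held 0.903 M in them and that of rank 23 1.01 M. The longer entries stay between 0.186 and 0.262 M in the 16 libraries at the ends.

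By class, the 2 U4 entries took the largest median share of the sum in the high group, 45.5%, against 20.2% in the low group. The 1504 snoRNA entries took 19.1% and 10.9%, and the Y RNAs 17.1% and 5.69%. In the low group the 3 entries of 7SL led with 26.1%, and they held 5.49% in the high group. RNase P RNA, 7SK and RMRP held 0.270%, 0.246% and 0.221% in the high group and 1.28%, 1.23% and 1.19% in the low group. By these medians U4 led in the high group and 7SL in the low group. Library by library, the U4 pair exceeded Rn7s1 and Rn7s2 together in 8 of 8 high and in 4 of 8 low libraries.

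Gm24407, one of the U4 genes, had 628352 to 2991650 FPKM in the high group (median 1505730) and 4013 to 279096 in the low group (median 133082). The groups did not overlap in this entry, which is itself a large part of the ranking. Gm24265, its neighbour, had medians of 1357500 and 106797 FPKM. Rny3 had 410256 to 1147290 FPKM (median 973736) in the high group and 7117 to 197917 (median 56021) in the low group. Rny1 had medians of 219744 and 10606 FPKM, with its highest low library, at 62239, just above its lowest high library, at 60206. These 4 entries are the ones printed above, and all are under 150 bases.

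Other entries under 150 bases varied more between libraries of one group. Gm22486, a snoRNA of 137 bases (chromosome 6), had medians of 249236 and 29717 FPKM, and it ran from 61106 to 643791 within the high group. Gm25492, a scaRNA of 129 bases, had medians of 63777 and 6501 FPKM and was listed at 0 in 2 low libraries. Gm25835, a snoRNA of 144 bases, had a median of 49329 FPKM in the high group and was listed at 0 in 6 of the 8 low libraries and in 1 high library. Gm25791, a snoRNA of 137 bases, was listed at 0 in 5 low and 2 high libraries. Zeros and high values thus stood side by side in such entries.

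The longer of the short RNAs moved less. Rn7s1, one of the near-identical 7SL genes (ENSMUSG00000099021, 300 bases), had 122462 to 230535 FPKM (median 180080) in the high group and 84920 to 184866 (median 118867) in the low group. Its copy Rn7s2 had medians of 180090 and 118857 FPKM, and reads of the copies cannot be told apart. Rpph1 had medians of 16562 and 11792 FPKM.

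Rn7sk and Rmrp did not set the groups apart. These RNAs were named as marks when this part of the series was chosen, and not by the study or its labels. Rn7sk (ENSMUSG00000065037, 331 bases) had 12747 to 25523 FPKM (median 15256) in the high group and 9819 to 15950 (median 13086) in the low group, a ratio of medians of 1.17. Rmrp (ENSMUSG00000088088, 271 bases) had 11080 to 17297 FPKM (median 14641) and 6648 to 17825 (median 10030), a ratio of 1.46. The ranges of the groups overlapped for both, and the highest Rmrp of the 16 belonged to a low library, cortex Δ12/Δ12 female 1. The high libraries are therefore called here by their U4 and Y RNAs and not by 7SK or RMRP.

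**Figure D2:**
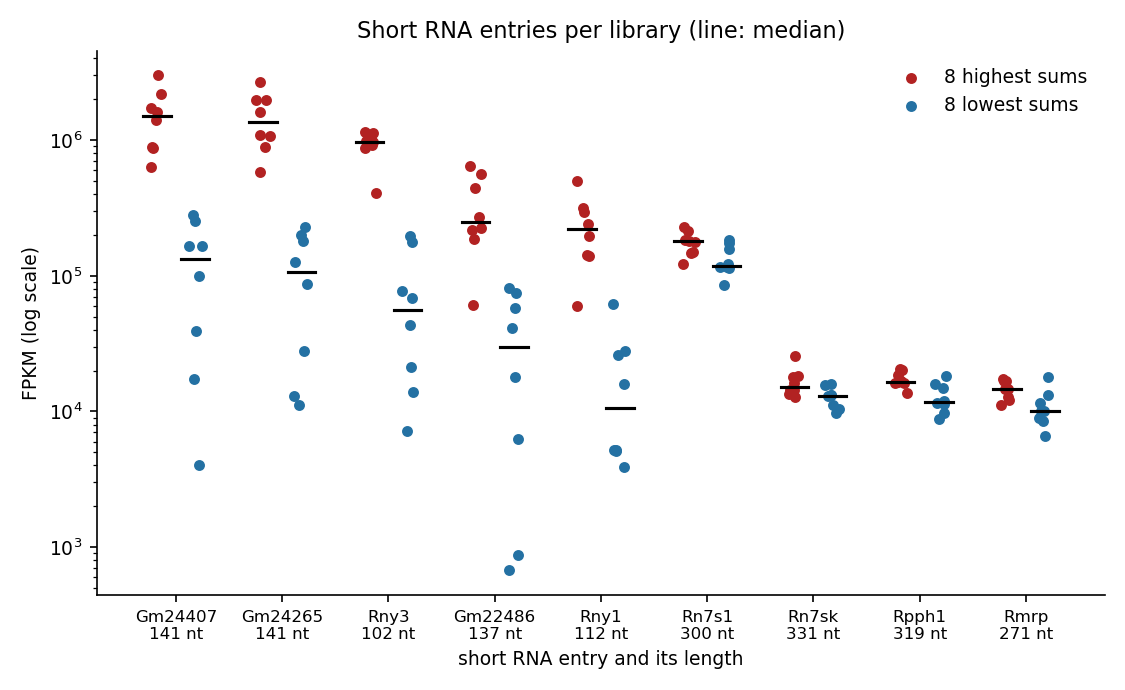
FPKM on a log10 axis of named short RNA entries in each of the 8 high and 8 low libraries. Points are libraries and bars are medians. Gm24407 and Rny3 do not overlap between the groups, whereas Rn7sk and Rmrp do.

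The number of fragments behind these values was small. The deposited confidence bounds of an entry give the number of fragments they imply, which lies within 0.05 of a whole number for 61.4 to 64.2% of single-transcript genes with few fragments in the 30 libraries. Gm24407 had a median of 52.1 implied fragments in the high group (26.9 to 96.0) and 25.0 in the low group (5.00 to 53.9), a ratio of 2.08 against one of 11.3 in FPKM. Rny3 had 13.0 (6.00 to 20.0) and 5.50 (1.99 to 13.0), a ratio of 2.36 against 17.4 in FPKM. Rny1 had 3.50 and 2.00. The fragments of U4 and Y RNA thus differed far less between the groups than their FPKM did.

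The same held for all entries under 150 bases together. They were implied to hold 91.3 to 307 fragments (median 160) in the high group and 38.0 to 166 (median 79.0) in the low group, out of libraries of 18.5 to 30.5 M and 18.2 to 22.3 M estimated fragments. Short entries with fewer than 100 implied fragments carried 83.9 to 94.6% of the whole sum of FPKM in the high libraries and 11.4 to 71.4% in the low ones. Those with fewer than 10 carried 20.8 to 43.6% and 6.75 to 46.6%. Where fragments were shared with a copy the implied number is too low, and these counts carry counting error only.

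The value given to 1 fragment differed as well. FPKM divides fragments by the length of transcript on which a fragment of the library's size can lie, and that length becomes very small where the transcript is shorter than most fragments. On entries of 130 to 145 bases, 1 fragment was worth 11077 to 66814 FPKM (median 33507) in the high group and 676 to 14517 (median 5292) in the low group, a ratio of medians of 6.33. It was worth 7960 to 31678 in the 14 libraries between the groups. On entries of 260 to 340 bases it was worth 0.452 to 0.717 FPKM in the high and 0.591 to 0.753 in the low group, a ratio of medians of 0.818. Gm24407 shows both ends: its 50.3 implied fragments gave 2991650 FPKM in the high library cortex KO-line +/+ male 2, and its 53.9 gave 100315 in the low library cortex Δ12/Δ12 female 1. The values by size are medians over single-transcript genes. Those for 130 to 145 bases rest on 6 to 19 entries per library in the high group and 6 to 13 in the low group. That window takes in the length of the U4 entries, a large part of the ranked sum. The difference between the groups is therefore tied to the ranking and is given as a description. Some abundant entries lay outside these medians. Rn7s1 had 36.8 FPKM per implied fragment in the low library cortex KO-line +/+ female 2 and 98.6 in the high library cortex KO-line KO/+ male 3. Its implied number stayed at 2305 to 2339 in the 16 libraries while its FPKM varied, so it cannot be read as a count.

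**Figure D3:**
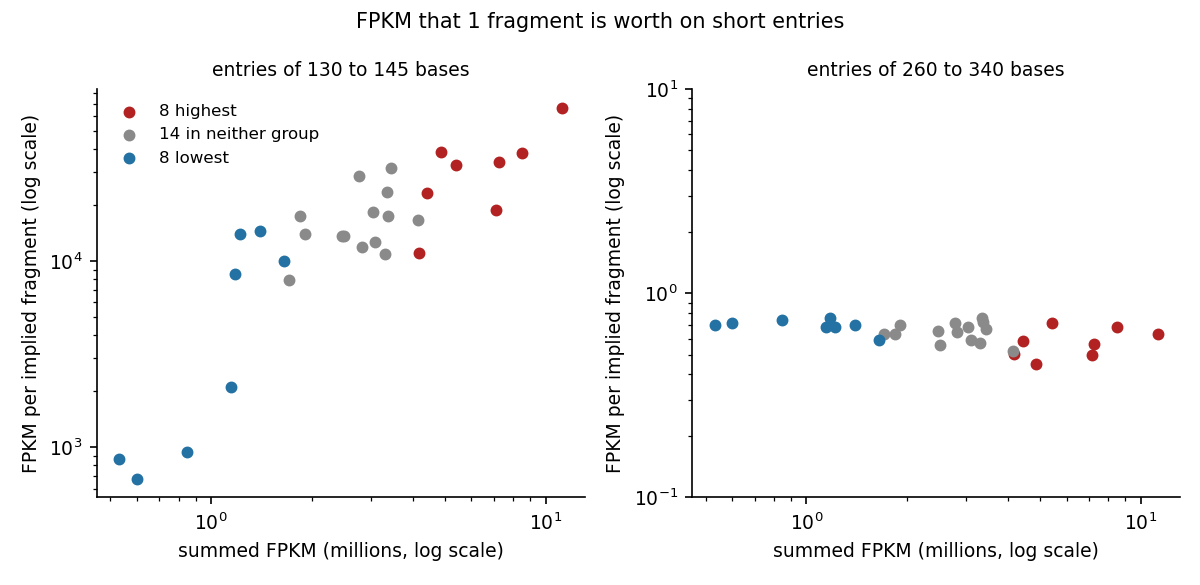
FPKM worth of 1 implied fragment (y axes, log scale) against the sum of FPKM (x axes, log scale) for the 30 striatum-like libraries, on entries of 130 to 145 bases (left) and of 260 to 340 bases (right). On the left the high libraries lie at 11077 to 66814 FPKM per fragment and the low libraries at 676 to 14517. Entries of that size are part of the sum, so the axes on the left are not independent.

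The mean fragment length, fitted from the same bounds, was 236 to 243 bases in the high group and 234 to 244 in the low group (mean difference -0.23 bases, exact permutation p = 0.873, two-sided, adjusted p = 0.919 over 20 technical and marker values). The spread of lengths about the mean was not measured. Estimated depth had a median of 23.2 M in the high group and 19.7 M in the low group, with a mean difference of 3.74 M (exact permutation p = 0.0267, adjusted p = 0.267). The high libraries had 21233 to 22024 entries above 0 and the low ones 21134 to 21730 (exact permutation p = 0.0205, adjusted p = 0.267). None of the 20 values passed after adjustment.

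Cell-type markers, all longer genes, overlapped between the groups in every list. Summed markers of oligodendrocytes and myelin were 1125 to 1479 rescaled FPKM in the high group and 1146 to 1683 in the low group, and those of microglia 124 to 140 and 126 to 141. Choroid plexus markers ran from 341 to 2130 and from 102 to 2246, a wide spread within each group. The smallest p among the marker sums was that of interneurons, with means of 164 and 154 rescaled FPKM (exact permutation p = 0.0517, adjusted p = 0.278).

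The labels were then compared on the log2 sum over the 30 libraries, with 3 comparisons adjusted together. Libraries labelled KO/+ had a median sum of 2.19 M and those labelled +/+ 3.42 M, a log2 difference of -0.91 with SDs of 1.17 and 0.97 (12 and 12 libraries, permutation p = 0.0495, two-sided, adjusted p = 0.149). The ranges, 0.532 to 7.12 and 1.40 to 11.2 M, overlapped. Labelled striatum against labelled cortex differed by -0.29 (15 and 15, permutation p = 0.469, adjusted p = 0.474), and labelled female against male in the KO line by -0.34 (12 and 12, permutation p = 0.474, adjusted p = 0.474). No label passed after adjustment for the 3 comparisons.

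The 30 cortex-like libraries gave still larger sums, 2.26 to 104 M. Rn7s1 was listed at 0 in all 30 of them with a status of too many fragments, and in none of the striatum-like libraries, so 7SL cannot be compared between them.

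The longer genes were asked about next, after rescaling each library by its median ratio to the geometric mean of the libraries compared (median-of-ratios), on the log2(rescaled FPKM + 0.5) scale. With 8 high against 8 low sums, 0 of 14878 longer entries passed an adjusted p of 0.05 in limma (0.0%), and 965 had an unadjusted p under 0.05, 407 of them higher and 558 lower. The smallest adjusted p was 0.586. Of all entries, 94.3% had a log2 difference within 0.25 of 0, and the median standard error was 0.085.

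Among the longer genes of smallest p, 2 chosen after their values were seen are given as values. Bex1, a small adaptor protein of neurons, had 16.8 to 20.9 rescaled FPKM (median 18.5) in the high group and 14.5 to 17.2 (median 15.4) in the low group, a log2 difference of 0.29 (SE 0.05, limma adjusted p = 0.586). Crcp, a subunit of RNA polymerase III, had 3.88 to 4.98 and 4.87 to 5.82, with 7 of 8 high libraries below every low one and a log2 difference of -0.27 (SE 0.05, limma adjusted p = 0.612). In the cortex-like libraries, ranked the same way, Bex1 and Crcp differed by -0.22 and -0.07 on the log2 scale, each with a limma adjusted p of 1.00.

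The protein partners of the short RNAs did not pass either. Of the 7SK complex and P-TEFb, 0 of 8 genes passed with a median log2 difference of 0.03, and Larp7, which binds and stabilizes 7SK, had medians of 2.87 and 2.73 rescaled FPKM. Of the RNase P and RNase MRP proteins 0 of 10 passed (median 0.09), of the signal recognition particle proteins 0 of 8 entries (median 0.05), of the RNA polymerase III list 0 of 21 (median 0.01) and of the snoRNP core proteins 0 of 7 (median 0.03). Among 13 tested host genes of snoRNAs 0 passed, with a median of -0.03. The median over all entries tested was 0.00.

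No cell-type list held a call, and the signs of their differences are given beside the 7459 of 14878 entries of all kinds that were positive. Genes of one cell type can vary together within a library, so these signs are not independent observations and were not tested. Summed per library, oligodendrocyte and leptomeningeal markers did not pass (exact permutation, adjusted p = 0.433 and 0.278). All 14 tested oligodendrocyte genes had a negative difference (median -0.12), among them Mobp, a myelin protein, with -0.18 (SE 0.08, limma adjusted p = 0.737). All 7 leptomeningeal genes were negative (median -0.19), and 7 of 8 choroid plexus genes (median -0.14). Of 9 cortical excitatory neuron genes 7 were positive (median 0.17), and Nrgn, a calmodulin-binding protein of excitatory neurons with the smallest p of that list, had 0.24 (SE 0.10, limma adjusted p = 0.745). Of 12 immediate early genes 10 were positive (median 0.11). Of the indirect pathway 5 of 5 tested genes were positive (median 0.12), of interneurons 7 of 8 (median 0.09) and of shared projection neuron genes 8 of 10 (median 0.10). Of the direct pathway 5 of 7 were positive (median 0.04). Signs were mixed in glial and vascular lists, with 7 of 11 microglial, 6 of 11 endothelial and mural, 4 of 11 astrocyte and 4 of 6 oligodendrocyte precursor genes positive. The 4 tested septal and hypothalamic neuropeptide genes were all negative, with a median of -0.53, and none passed. Slc17a7, which defined the striatum-like libraries, ran from 4.95 to 62.0 and from 5.99 to 34.5 rescaled FPKM, and Htt from 11.0 to 18.1 and from 13.4 to 17.9. In bulk tissue, fewer cells of a type and less RNA per cell cannot be told apart.

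Because Rn7sk and Rmrp had been named as marks when this part of the series was chosen, the 30 were also ranked by the summed FPKM of this pair. That ranking was one of the alternatives planned, and it became a comparison of its own after its count of calls was seen. It shared 4 high and 3 low libraries with the ranking by sum. Rn7sk ran from 14342 to 25523 FPKM in its 8 high libraries and from 9819 to 12922 in its 8 low libraries, and Rmrp from 14304 to 17825 and from 6648 to 10165, which is the rule and no finding. By label the high group held 6 cortex and 2 striatum, with 3 of Δ12/Δ12, and the low group 5 and 3, with 1 of Δ12/Δ12.

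In that ranking 723 of 14931 longer entries passed (4.84%), 159 higher (1.06%) and 564 lower (3.78%) where Rn7sk and Rmrp were high. With FPKM as deposited, which moved the median over all entries to 0.21 on the log2 scale, 6699 passed, 6290 higher and 409 lower. The libraries differed in scale as well. Their median-of-ratios factor was 0.973 to 1.20 in the high group and 0.864 to 1.00 in the low group (exact permutation p = 0.000466, adjusted p = 0.00622 over 20 values). When Rn7sk and Rmrp were themselves rescaled by that factor before ranking, 7 of 8 high and 6 of 8 low libraries stayed and 1 entry passed, Gm11175, named after its value was seen, with a log2 difference of 0.57 (limma adjusted p = 0.00345). The calls below are given with that limit, and the part of the scaling factor in them was not tested.

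Entries of 2 noncoding classes were prominent among those lower where Rn7sk and Rmrp were high. Of 622 entries of the annotation class TEC, transcript models that await experimental evidence, 299 passed as lower (48.1%, against 3.78% of all entries) and 0 as higher, with a median log2 difference of -0.40. Of 82 sense intronic entries 32 passed as lower (39.0%) and 0 as higher, with a median of -0.37. Among 12758 protein-coding entries 180 were lower and 135 higher (median 0.01). With FPKM as deposited 296 of 618 TEC entries passed as lower and 7 as higher, with a median of -0.25, and with the rescaled pair their median was -0.22. These classes were looked at after the values were seen.

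Summed over the class, TEC entries held 558 to 971 rescaled FPKM (median 738) in the 8 high libraries and 922 to 1234 (median 1096) in the 8 low ones. In all but 1 of the high libraries the sum lay under that of every low library, the exception being cortex Δ12/Δ12 female 2, which also had the highest Rn7sk. Sense intronic entries summed to 99.6 to 140 and 135 to 172 rescaled FPKM, again with 7 of 8 high libraries under every low one. Single entries fell by more. RP23-52J10.6 fell by 0.85 on the log2 scale, RP23-52J10.3 by 0.75 and RP23-60N8.3 by 0.58.

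**Figure D4:**
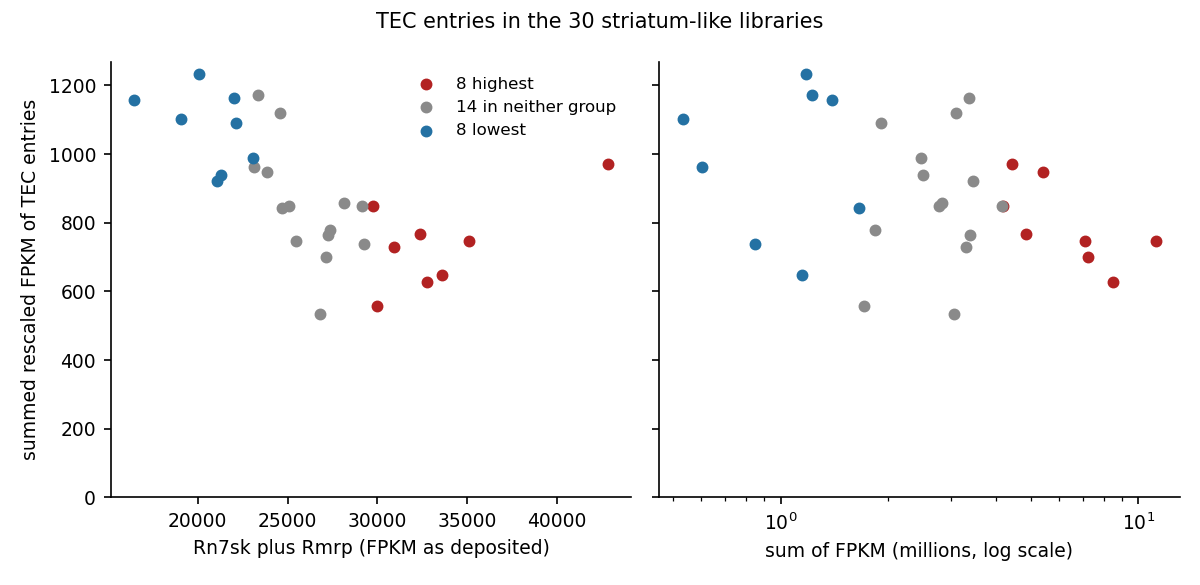
Summed rescaled FPKM of the TEC entries in the 30 striatum-like libraries against Rn7sk plus Rmrp in FPKM as deposited (left) and against the sum of FPKM on a log axis (right), with the 8 highest, the 8 lowest and the other 14 of each ranking in their own colours. On the left 7 of the 8 highest lie below all of the lowest, and on the right 1 does.

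Some long noncoding RNAs kept in the nucleus passed as lower. Of 15 tested entries of 9 such genes 6 passed as lower, where 3.78% of all entries did, and 0 as higher, with a median of -0.38 against 0.01 over all entries. Malat1, the abundant RNA of nuclear speckles (chr19:5795690-5802672), had 899 to 1518 rescaled FPKM (median 1194) in the high group and 1100 to 1804 (median 1570) in the low group, a log2 difference of -0.39 (SE 0.11, limma adjusted p = 0.0495). Its groups overlapped, with 3 of 8 high libraries under every low one.

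Kcnq1ot1, the antisense RNA of an imprinted cluster (chr7:143212155-143296549), had 1.23 to 2.46 rescaled FPKM (median 1.76) and 2.27 to 2.84 (median 2.60), a log2 difference of -0.47 (SE 0.09, limma adjusted p = 0.00985). In this gene 7 of 8 high libraries lay under every low one. Of the entries of Snhg14, the long paternal transcript that hosts snoRNAs of the Prader-Willi region, 3 passed. The one at chr7:59770277-59862868 ran from 1.06 to 1.86 and from 1.92 to 2.80 with no overlap, a log2 difference of -0.52 (SE 0.09, limma adjusted p = 0.00715). Mirg, a microRNA host of an imprinted cluster, differed by -0.47 (SE 0.13, limma adjusted p = 0.0445). Meg3, Rian, Neat1, Miat and Snhg11 did not pass. With FPKM left as deposited the median of the list was -0.15, and 4 entries passed. In the cortex-like libraries ranked by Rn7sk and Rmrp, 0 of 13 tested entries of the list passed and 4 were positive (median -0.13). Under the ranking by sum, 1 of 14 entries was positive in the striatum-like libraries (median -0.15). In the cortex-like libraries ranked by sum 7 of 13 were positive (median 0.05), and none passed in either.

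Protein-coding genes passed on both sides. Among those higher, Ncdn, a neurite outgrowth protein, rose by 0.26, Sf3a2, a splicing factor of U2 snRNP, by 0.35, Ndufa2 of complex I by 0.29 and Mrpl52 of the mitochondrial ribosome by 0.43 on the log2 scale. Among those lower, Thoc2, of the mRNA export complex THO, fell by 0.33 and Arnt, a partner of hypoxia-inducible factors, by 0.40. Single calls in the lists of short RNA partners are no result about those lists beside the 4.84% of all entries called. In the 7SK complex list 1 of 8 passed, Ccnt2, a cyclin of P-TEFb, with -0.30 (SE 0.08, limma adjusted p = 0.0346), while Larp7 had 0.04 and Cdk9 0.09. In the RNA polymerase III list 1 of 21 passed, Polr3f, with -0.30 (SE 0.08, limma adjusted p = 0.0334). None of the cell-type lists held a call. Summed microglial markers were 125 to 146 and 122 to 135 rescaled FPKM (exact permutation p = 0.00886, adjusted p = 0.0591).

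**Figure D5:**
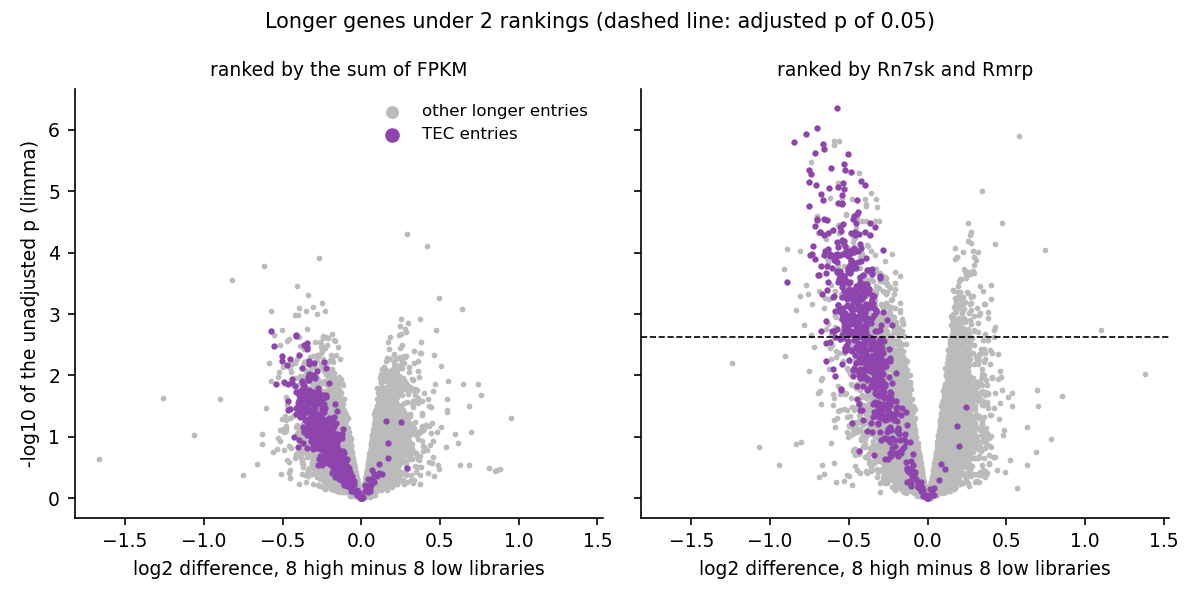
Unadjusted limma p on a -log10 axis against the log2 difference, 8 high minus 8 low libraries, of each longer entry for the ranking by sum of FPKM (left) and by Rn7sk and Rmrp (right), with TEC entries in purple. The dashed line marks an adjusted p of 0.05, past which lie 0 entries on the left, where no line is drawn, and 723 on the right, 564 of them lower.

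Libraries that the rankings had not used were looked at for the same values. In the cortex-like libraries ranked by Rn7sk and Rmrp, 0 of 14621 entries passed (0.0%), 2141 had an unadjusted p under 0.05 in limma, and the median of 181 TEC entries was -0.34. Over the 14 striatum-like libraries in neither group of that ranking, the slope of log2 expression on the pair gave 0 calls and a TEC median of -1.09 per doubling. The pair ran only from 23106 to 29271 FPKM in these 14, less than a doubling. Under the ranking by sum, the TEC median was -0.20 in the 16 libraries with 578 of 619 entries negative and none called. It was 0.10 per doubling in the 14 libraries that ranking left out and 0.08 in the cortex-like libraries. TEC entries thus had the same sign in unused libraries under the ranking by Rn7sk and Rmrp and the opposite sign under the ranking by sum. For Rn7sk and Rmrp the unused libraries were again ordered by FPKM as deposited, with expression rescaled. The part of the scaling factor in that sign was not tested.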

How the data were processed

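The authors extracted total RNA (RNeasy Mini Plus), depleted rRNA, prepared directional NEBNext Ultra II libraries and sequenced them on a NovaSeq6000. The submitters' processing notes name bcl2fastq 2.20, Trimmomatic 0.30, TopHat2 2.0.14, SAMtools 1.3, HTSeq 0.6.1p1 and GRCm38.p4. The authors deposited 1 table of FPKM with confidence bounds per library in Cufflinks layout, and the program that made it is not given in the sources used here. Of 47597 entries, fits left out the 23 that any library did not list as OK, which was decided with the values in view.

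The libraries, the members and lists were chosen with earlier results of these data known. FPKM were rescaled by median-of-ratios, 0.5 was added, and entries with a mean of at least 0.5 were tested with limma 3.58.1 in R 4.3.3 with Benjamini-Hochberg adjustment at 0.05. P-values measure the spread between libraries, which may be partly technical. Single values used permutation tests in scipy 1.17.1, exact or with 100000 resamples for groups of 10 or more. Implied fragments are 4 times the squared FPKM over the squared distance to the upper bound. Depth and mean fragment length were fitted to transcripts of 1000 to 8000 bases with 8 to 3000 implied fragments. The script was tested on simulated data of 14878 genes for the 8 and 8 libraries of the ranking by sum: of 100 genes moved by 0.5 (log2) 76 were called, of 100 moved by 1 there were 96, and 5 unmoved genes were called. Genes are named from the fixed lists, by size among short entries, and as the 10 entries of smallest adjusted p in each direction. Where no entry was called, the 10 of smallest p were looked at after the values were seen. Gene types and sequences came from GENCODE M21, whose coordinates matched 40682 entries. Short RNA families were taken from sequences within 10 mismatches. For 1 library, striatum KO/+ female 3, title and genotype label name different lines, and it was placed by its genotype. Alternatives were other scalings, pseudocounts, filters, rankings, covariates and each library left out.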

Additional observations from a re-analysis of the deposited data

Results flagged for a closer look

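Of 48 pairs of value and group examined for a single library far from the other 7, 3 stood out, and chance alone gives about 1 in 20. The summed markers of indirect-pathway projection neurons were 604.9 rescaled FPKM in the high library striatum KO-line KO/+ female 3, with the next at 508.4 and a median of 485.8. The summed microglial markers were lowest, 124.3, in the high library cortex KO-line KO/+ male 3, with the next at 134.2 and a median of 136.8. Rn7sk was highest in the high library cortex Δ12/Δ12 female 2, at 2.552e+04 FPKM, with the next at 1.826e+04 and a median of 1.526e+04.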

How the results depend on the processing

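In the ranking by sum of FPKM, 0 longer entries were called under every alternative run but 2: keeping the short entries gave 3 calls, Rny3, Rny1 and Gm24265, which the ranking itself had used, and ranking by Rn7sk and Rmrp gave 723. Leaving out each library gave 0 calls each time, with 714 to 1402 entries at an unadjusted p under 0.05. The cortex-like libraries gave 0 calls under all alternatives run. For the ranking by Rn7sk and Rmrp, chosen as a comparison after its calls were seen together with its alternatives, FPKM as deposited gave 6699 calls (6290 higher and 409 lower), labelled genotype as covariate 1256 and an adjusted p of 0.1 1347. Fewer came from the KO line alone (445), quantile normalization (417), depth as covariate (415), a mean of 2 or more (392), Rmrp alone (95), the rescaled pair (1) and the slope over the 14 remaining libraries (0). That slope also turned Pdzph1 (-0.88), Scrg1 (-0.11) and Abhd11os (-0.12) negative, in log2 units per doubling of the pair and with none of them called. Leaving out one library gave 358 to 937 calls, with 358 without cortex KO-line +/+ male 1, 376 without cortex KO-line +/+ female 1, 400 without cortex Δ12/Δ12 female 3 and 436 without cortex KO-line KO/+ male 2. The causes were not tested. The sum of KO/+ against +/+ was -0.78 (permutation p = 0.0818) with rescaled FPKM, and -1.08 to -0.74 (permutation p 0.0192 to 0.0948) with one library left out, so its unadjusted p rests on single libraries. The tissue comparison stayed at -0.46 to -0.15 and that of sex at -0.55 to -0.15, none past the threshold. Equally numbered cortex and striatum libraries correlated at -0.16 to 0.22 over 15 pairs, 7 above 0.1. No reference was drawn for these correlations, so whether libraries of one number came from one mouse was not settled. With a block by replicate label the ranking by sum gave 0 calls and that by Rn7sk and Rmrp 86. Libraries of different genotypes share such a label, so it is no block by mouse. Few fragments lie on the entries under 150 bases, which limits the precision of their values.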
